A study of Mus musculus with 12 samples.

Results

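Akr1c14 and 8 further steroid-metabolizing enzymes were followed in cultured hernia-associated fibroblasts (HAFs) given estradiol (E2), the ESR1 antagonist fulvestrant or both. The members were the rows of the normalized count table for Akr1c14, Hsd11b1, Srd5a1, Srd5a3, Hsd17b4, Hsd17b10, Hsd17b11, Hsd17b12 and Por, and all 9 were present among the 13233 genes analysed. HAFs are skeletal muscle fibroblasts grown from the lower abdominal muscle of Aromhum mice, which carry a transgene for human aromatase, the P450 enzyme that converts testosterone to E2. Every group had this genotype, so the vehicle cells carried the transgene too, and cultures without it were not analysed here.

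RNA-Seq was analysed in 4 groups of 3 samples, all taken at 48 h: vehicle (ethanol and DMSO), 10 nM E2, 100 nM fulvestrant, and 10 nM E2 with 100 nM fulvestrant. The cells were in 0.1% charcoal-stripped serum, and the labels do not say whether samples with the same replicate number came from the same animal or culture. P-values therefore measure the spread between these samples, which may be technical. The unit throughout is the normalized count, a read count that the authors divided by a factor per sample. Reads on the 13233 genes, recovered with a factor per sample, ranged from 18827792 to 44040507 (median 31703872), and no gene fell under 10 in any sample. This recovery did not pass a check of the unit, so the depths are approximate. Of markers fixed for the cell type, 8 of 8 fibroblast genes were present, and none of 6 myogenic, 3 adipocyte or 4 epithelial genes was among the genes analysed. One of 4 endothelial markers (Tek), 1 of 5 leukocyte markers (Cd68) and 2 of 4 smooth muscle and pericyte markers were present. The summed fibroblast markers ranged from 440865 to 494077 normalized counts with vehicle, 507554 to 566122 with E2, 330647 to 394859 with fulvestrant and 362990 to 376717 with E2 plus fulvestrant. This sum was lower in every fulvestrant sample, with or without E2, than in every vehicle sample, and the part of this difference in the results was not tested. The sum rests mainly on Col1a2, Col3a1, Dcn and Col1a1 (medians of 127768, 101232, 74681 and 50917 over the 12 samples). Lum (1315) and Thy1 (436) hardly enter it. The markers also differed by replicate number: replicate 1 had from 0.120 (Thy1) to 1.95 times (Col1a2) the mean of replicates 2 and 3. The smooth muscle and pericyte markers (2017 to 3222 with vehicle, 2121 to 3305, 1875 to 4228, and 1942 to 4303), Tek (58.4 to 277, 65.1 to 166, 70.6 to 193, and 83.7 to 259) and Cd68 (49.6 to 84.4, 28.2 to 66.3, 66.3 to 88.4, and 58.1 to 112) overlapped between the fulvestrant and vehicle groups. In such bulk samples, fewer cells of a kind and less RNA per cell cannot be told apart.

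Steroid hormones are made active or inactive inside target cells by a small set of enzymes. Reductases and dehydrogenases interconvert keto and hydroxyl groups on the steroid, cytochrome P450 enzymes add hydroxyl groups with electrons passed on by P450 oxidoreductase, and transferases attach sulfate or glucuronic acid to products that leave the cell. Several genes named as hydroxysteroid dehydrogenases act mainly on fatty acids or other lipids. Fibroblasts are known as a site where inactive glucocorticoid is turned back into its active form by the product of Hsd11b1.

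Akr1c14 (ENSMUSG00000033715) encodes a 3-alpha-hydroxysteroid dehydrogenase of the aldo-keto reductase family and lies on chromosome 13 of GRCm38, the mm10 build, from 4049011 to 4090688. Of its exon sequence 7.22% lies in exons of Gm18857 on the same strand. Hsd11b1 (ENSMUSG00000016194, chromosome 1, 193221634 to 193264075) encodes the 11-beta-hydroxysteroid dehydrogenase that regenerates active glucocorticoid. Srd5a1 (ENSMUSG00000021594, chromosome 13, 69573449 to 69611442) encodes a steroid 5-alpha-reductase that makes dihydrotestosterone, and 16.4% of its exon sequence is shared with Gm17108. Srd5a3 (ENSMUSG00000029233, chromosome 5, 76140271 to 76155504) is the family member needed to make dolichol. Hsd17b4 (ENSMUSG00000024507) encodes a peroxisomal enzyme of fatty acid beta-oxidation, and Hsd17b10 (ENSMUSG00000025260, chromosome X, 152001845 to 152004442) a mitochondrial enzyme that is also a subunit of mitochondrial RNase P. Hsd17b11 (ENSMUSG00000029311, chromosome 5, 103989762 to 104021919) encodes a lipid droplet dehydrogenase, and Hsd17b12 (ENSMUSG00000027195, chromosome 2, 94032689 to 94157964) the ketoacyl-CoA reductase of fatty acid elongation. Por (ENSMUSG00000005514, chromosome 5, 135670033 to 135735326) encodes P450 oxidoreductase, the electron donor of microsomal P450 enzymes, aromatase included. The last 6 genes and Hsd11b1 shared 0% of exon sequence with another gene on their strand.

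The promoters of Akr1c14, Hsd11b1 and Por are shown because these 3 genes had the largest ratio of highest to lowest sample among the members. Each is 300 bases from RefSeq on GRCm38.p6, from 250 bases before to 50 bases after the RefSeq start, written 5′ to 3′ on the gene's strand with each CpG dinucleotide in capitals. The Akr1c14 window is chr13:4059341-4059640 on the plus strand, that of Hsd11b1 is chr1:193242311-193242610 on the minus strand, and that of Por is chr5:135688895-135689194 on the plus strand.
Akr1c14: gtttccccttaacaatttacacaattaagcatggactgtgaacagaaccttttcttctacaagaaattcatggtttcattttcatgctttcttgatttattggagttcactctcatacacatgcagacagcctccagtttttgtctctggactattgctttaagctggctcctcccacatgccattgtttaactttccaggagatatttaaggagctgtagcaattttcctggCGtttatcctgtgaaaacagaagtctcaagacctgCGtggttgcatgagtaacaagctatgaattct
Hsd11b1: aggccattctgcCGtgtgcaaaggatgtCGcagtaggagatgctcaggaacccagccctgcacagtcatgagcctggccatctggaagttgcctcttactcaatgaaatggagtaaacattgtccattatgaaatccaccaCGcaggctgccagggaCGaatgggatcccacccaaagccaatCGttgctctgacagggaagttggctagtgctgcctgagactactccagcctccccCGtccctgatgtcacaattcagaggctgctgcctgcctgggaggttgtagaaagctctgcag
Por: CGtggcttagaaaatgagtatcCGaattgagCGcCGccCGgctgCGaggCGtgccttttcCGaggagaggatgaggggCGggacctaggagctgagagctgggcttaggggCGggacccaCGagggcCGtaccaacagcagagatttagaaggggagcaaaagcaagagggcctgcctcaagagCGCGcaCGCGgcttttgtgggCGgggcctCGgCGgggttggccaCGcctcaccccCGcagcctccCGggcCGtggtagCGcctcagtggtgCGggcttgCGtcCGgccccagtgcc

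The Akr1c14 window held 2 CpG and 39.7% G or C, the Hsd11b1 window 6 CpG and 54.7%, and the Por window 27 CpG and 67.3%. Over 32851 RefSeq promoters of this length the medians were 7 CpG and 52.7%. The other 5 members with a promoter in the table held 15 to 26 CpG, so the promoters of the 2 enzymes with the widest range over samples were the poorest in CpG of the 8 matched. Both strands were searched for the estrogen response element, an inverted repeat of GGTCA with 3 bases between (in 0.07% of all promoters), its half-site AGGTCA (16.3%), the glucocorticoid response element, an inverted repeat of GNACA with 3 bases between (0.475%), its half-site AGAACA (19.0%), the AP-1 element TGANTCA (7.81%), the GC box GGGCGG (35.7%) and the TATA box TATAAA (13.6%). None of these was found in the Akr1c14 or Hsd11b1 window, and Por held 4 GC boxes and none of the other elements. The RefSeq start of Akr1c14 lies 10580 bases from the start of the GENCODE gene, that of Hsd11b1 21715 bases and that of Por 19112 bases, so other start sites of these genes were not searched.

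Per length, the levels of the members differed widely. With vehicle, Hsd17b10 had 885 ± 164 normalized counts per kb of exon (SD, n = 3), Hsd17b12 839 ± 149, Hsd17b4 752 ± 33.1 and Hsd17b11 611 ± 28.4. Por followed at 414 ± 118 per kb, Srd5a3 at 132 ± 7.39 and Akr1c14 at 103 ± 36.8. At the bottom of the order, Hsd11b1 had 13.1 ± 4.66 and Srd5a1 10.7 ± 1.12 per kb. The ranges of the 3 samples overlapped between Hsd17b10 and Hsd17b12, between Hsd17b12 and Hsd17b4, between Srd5a3 and Akr1c14, and between Hsd11b1 and Srd5a1, so the order within these pairs does not exceed the spread. The other neighbours did not overlap. For comparison per kb, the glucocorticoid receptor gene Nr3c1 had 1288 ± 253 with vehicle, above Hsd11b1, the enzyme that supplies its ligand.

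**Figure D1:**
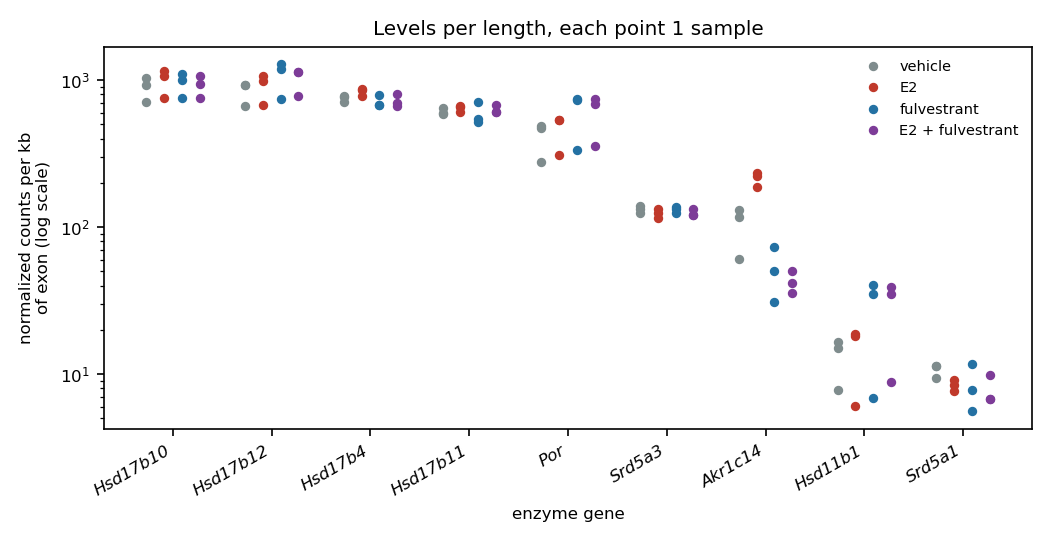
Normalized counts per kb of exon (log scale) of the 9 enzymes in all 12 samples, 1 point per sample, coloured by group and ordered by the vehicle mean. Akr1c14 ran from 30.9 to 234 per kb and crossed the level of Srd5a3, while Srd5a3 stayed between 116 and 140.

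The enzymes differed in how far they moved over the 12 samples. The highest sample exceeded the lowest by 7.56 times for Akr1c14 and by 6.64 times for Hsd11b1, then by 2.70 times for Por, 2.09 times for Srd5a1, 1.92 times for Hsd17b12 and 1.63 times for Hsd17b10. Hsd17b4 (1.31 times) and Srd5a3 (1.21 times) were the steadiest, and Hsd17b11 lay between these and Hsd17b10. Several enzymes also differed by replicate number. Replicate 1 had 0.272 times the mean of replicates 2 and 3 over the 4 groups for Hsd11b1, 0.518 times for Por, 0.663 times for Hsd17b12 and 0.722 times for Hsd17b10, against 0.864 times for Akr1c14. Comparisons below are therefore within replicate number, by limma on log2(normalized count + 1) with the replicate number as a block. The numbers set mainly replicate 1 apart, and correlations between samples did not bear out the matching among replicates 2 and 3. Calls needed a fold change over 1.2 and an adjusted p under 0.05 (Benjamini-Hochberg, over all 13233 genes), and log2 changes are on the log2(value + 1) scale.

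**Figure D2:**
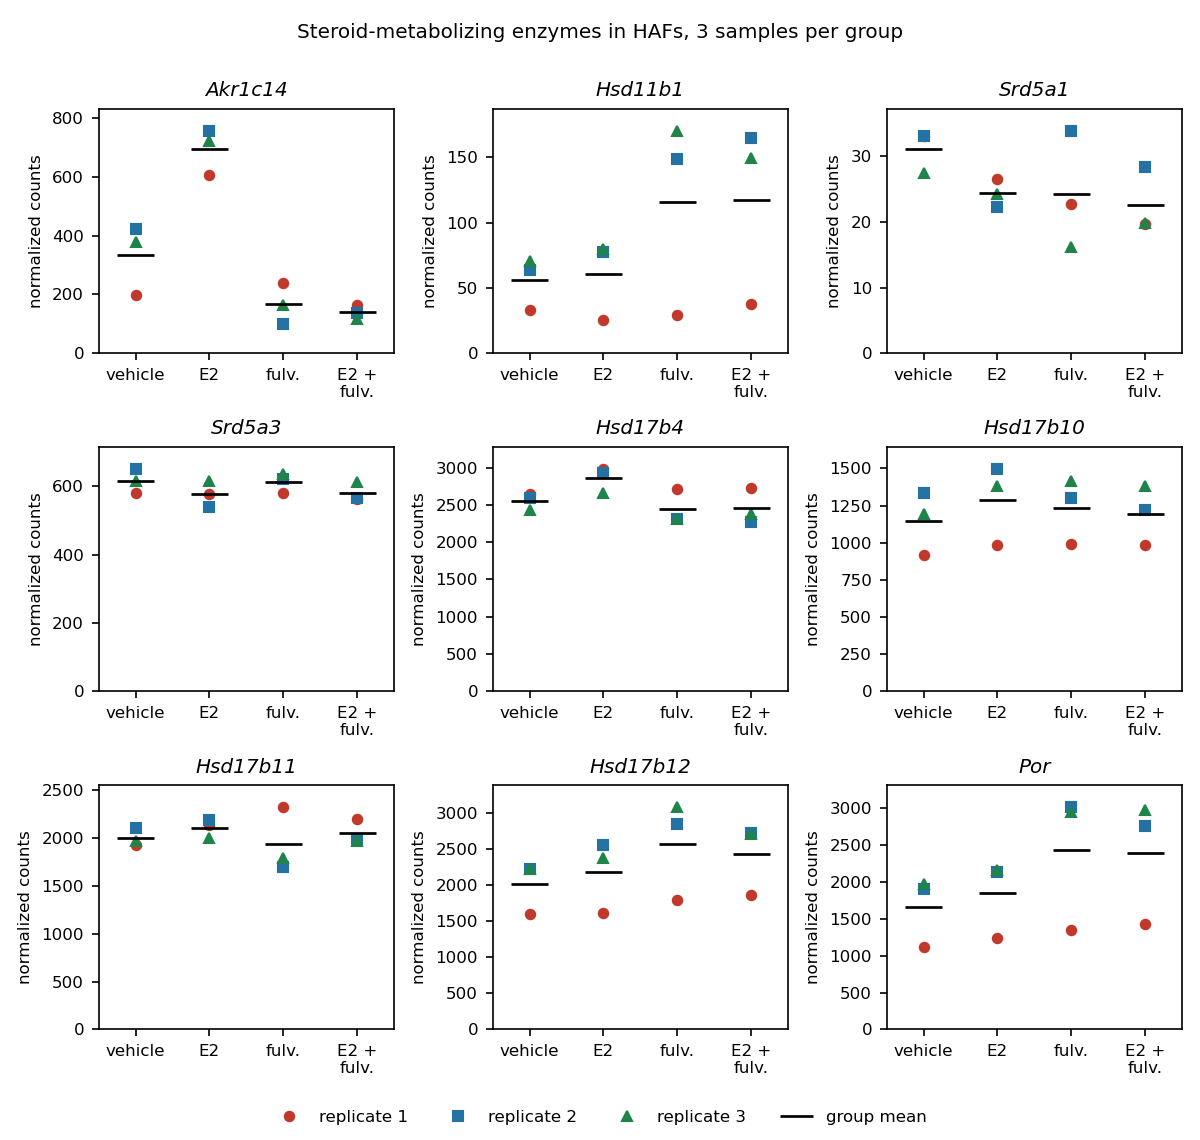
Normalized counts of the 9 enzymes in each of the 12 samples, with symbols for replicate numbers and a bar for the group mean (n = 3). Akr1c14 was highest in the 3 E2 samples (608 to 757), replicate 1 lay lowest in every group for Hsd11b1, Hsd17b10, Hsd17b12 and Por, and for Srd5a1 with vehicle the points of replicates 1 and 2 coincide at 33.1.

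Akr1c14 was chosen by its measured difference between E2 and E2 plus fulvestrant, and the other enzymes were listed with it, so the comparisons that use those samples are described for it without a test. With vehicle it had 197, 422 and 379 normalized counts in replicates 1, 2 and 3 (333 ± 119, SD, n = 3). With E2 it had 608, 757 and 722 (695 ± 78.0), and with E2 plus fulvestrant 163, 136 and 116 (138 ± 23.8). The 3 E2 samples lay above all other samples, and the 3 samples with E2 plus fulvestrant lay below every vehicle sample. E2 against vehicle gave a log2 difference of 1.13 (2.19-fold), with 1.62, 0.84 and 0.93 in the 3 pairs. E2 against E2 plus fulvestrant gave 2.33 (5.02-fold), with 1.89, 2.47 and 2.63 in the pairs. In cells that had fulvestrant, adding E2 gave -0.19, with pairs of -0.54, 0.44 and -0.48 that did not share a direction. The E2 effect with fulvestrant minus that without it was -1.32.

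Fulvestrant alone against vehicle uses none of the samples that chose Akr1c14 and was tested for all 9 enzymes. This comparison asks what the antagonist does to cells to which no E2 was added. Of the 9 enzymes 1 was called, Por, which was higher, where 2.74% of all genes were called higher and 2.49% lower (5.23% in either direction). The median log2 change of the 9 enzymes was -0.01 and that of all genes 0.01. At an unadjusted p under 0.05 there were 4 of the 9 enzymes and 2891 of all genes.

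With fulvestrant alone Akr1c14 had 238, 100 and 162 normalized counts (167 ± 69.0, SD, n = 3). Replicates 2 and 3 lay below all 3 vehicle samples, while replicate 1 was above its own vehicle sample of 197. The log2 change was -1.01 (SE 0.38, 95% interval -1.91 to -0.10, limma adjusted p = 0.188), with 0.27, -2.07 and -1.22 in the pairs, so the fall did not pass the test. It depended on replicate 1, the only pair that rose: without it the change was -1.64 (limma adjusted p = 6.73e-05). That fit holds only replicates 2 and 3 and leaves out the contrary pair, so it does not replace the test on all pairs.

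Hsd11b1 had 33.1, 63.5 and 70.3 normalized counts with vehicle (55.6 ± 19.8, SD, n = 3) and 29.3, 149 and 170 with fulvestrant (116 ± 75.9). With E2 it had 25.6, 77.3 and 79.8 (60.9 ± 30.6), and with E2 plus fulvestrant 37.4, 165 and 149 (117 ± 69.6). Replicates 2 and 3 were at 149 or above in both fulvestrant groups and at 79.8 or below in both groups without it, whereas replicate 1 stayed between 25.6 and 37.4 under all treatments. Fulvestrant alone gave a log2 change of 0.77 (SE 0.31, 95% interval 0.042 to 1.499, limma adjusted p = 0.206), which did not pass the test. Without replicate 1, the only pair that fell (-0.17), the change was 1.24 (limma adjusted p = 7.7e-04). That fit leaves out the contrary pair and does not replace the test on all pairs. E2 against E2 plus fulvestrant gave -0.84, lower with E2 in 3 of 3 pairs.

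Por rose with fulvestrant in 3 of 3 pairs. It had 1115, 1903 and 1970 normalized counts with vehicle (1663 ± 476, SD, n = 3) and 1354, 3011 and 2943 with fulvestrant (2436 ± 937). The pairs gave 0.28, 0.66 and 0.58, a log2 change of 0.51 (SE 0.09, 95% interval 0.29 to 0.72, limma adjusted p = 0.0272), or 1.42-fold. The sample ranges of the groups overlapped, because replicate 1 with fulvestrant lay below replicates 2 and 3 with vehicle, and without the replicate block the adjusted p was 0.978. The call was also lost without replicate 2 (0.43, limma adjusted p = 0.232) and without replicate 3 (0.47, limma adjusted p = 0.176), and in a fit without the variance trend (limma adjusted p = 0.114). With E2 plus fulvestrant Por had 1434, 2763 and 2970 (2389 ± 834), and with E2 1237, 2140 and 2159 (1845 ± 527), so within each pair the sample with fulvestrant was again the higher, by 0.35 on the log2 scale.

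Hsd17b12 moved in the same direction as Por with a smaller change. It had 1606, 2225 and 2227 normalized counts with vehicle (2019 ± 358, SD, n = 3) and 1792, 2852 and 3083 with fulvestrant (2576 ± 688). The sample with fulvestrant was higher in 3 of 3 pairs, and the log2 change was 0.33 (SE 0.08, 95% interval 0.13 to 0.52, limma adjusted p = 0.0726), short of the threshold. It was called without replicate 1, the pair with the smallest rise (0.16), at 0.41 (limma adjusted p = 0.00423). It was also called in a fit of all 12 samples (limma adjusted p = 0.00566). With E2 it had 1623, 2565 and 2381 (2190 ± 500), and with E2 plus fulvestrant 1873, 2729 and 2720 (2441 ± 492).

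The other 5 enzymes had small or uncertain changes with fulvestrant alone. Srd5a3, with 581 to 650 normalized counts with vehicle and 581 to 636 with fulvestrant, changed by -0.01 on the log2 scale (95% interval -0.22 to 0.20, limma adjusted p = 0.980). Srd5a1 was near the lowest levels in the table, at 27.5 to 33.1 with vehicle and 16.2 to 33.9 with fulvestrant, and its change of -0.40 had an interval of -1.05 to 0.24 (limma adjusted p = 0.443). Hsd17b4 changed by -0.07 (-0.24 to 0.10), Hsd17b10 by 0.11 (-0.09 to 0.31) and Hsd17b11 by -0.06 (-0.33 to 0.21), with limma adjusted p-values of 0.630, 0.517 and 0.804. For Hsd17b11 the pairs disagreed, with 0.27 in replicate 1 against -0.31 and -0.13 in replicates 2 and 3.

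**Figure D3:**
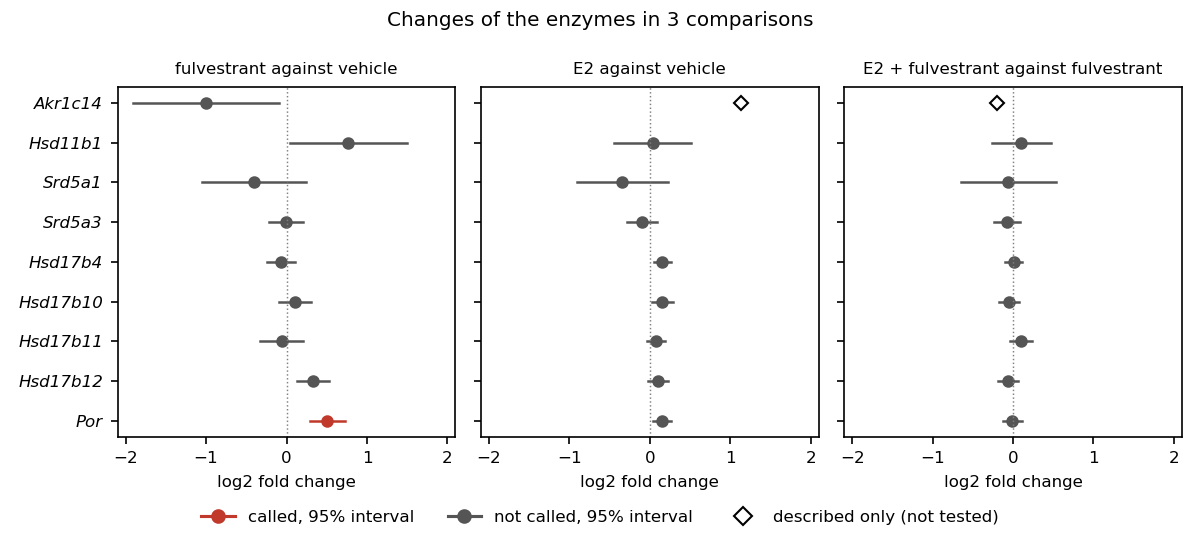
Log2 fold changes of the 9 enzymes for fulvestrant against vehicle, E2 against vehicle, and E2 plus fulvestrant against fulvestrant, with 95% intervals from limma with the replicate block (red, called; grey, not called; open diamonds, Akr1c14 described without a test). Por with fulvestrant (0.51) is the only called point, and the intervals for E2 in fulvestrant-treated cells all cross 0.

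E2 against vehicle asks what E2 does beside cells to which none was added. Of the 8 enzymes tested here 0 were called, where 0.431% of all genes were (0.325% higher and 0.106% lower). At an unadjusted p under 0.05, 3 of the 8 passed, Hsd17b4, Hsd17b10 and Por, as did 1917 of all genes. Hsd17b4 had 2651, 2594 and 2434 normalized counts with vehicle (2560 ± 113, SD, n = 3) and 2981, 2925 and 2663 with E2 (2856 ± 170). In each of the 3 pairs the E2 sample was the higher and the groups did not overlap, but the log2 change was 0.16 (SE 0.05, 95% interval 0.05 to 0.26, limma adjusted p = 0.226). Hsd17b10 (0.16, limma adjusted p = 0.275) and Por (0.15, limma adjusted p = 0.251) were also higher in 3 of 3 pairs. Hsd17b12 changed by 0.11, Hsd17b11 by 0.08, Hsd11b1 by 0.03, Srd5a3 by -0.09 and Srd5a1 by -0.34, with limma adjusted p-values of 0.409, 0.516, 0.956, 0.623 and 0.555. The interval of Srd5a1 (-0.90 to 0.23) leaves room for a change in either direction, that of Hsd17b11 (-0.04 to 0.19) much less.

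In cells that had fulvestrant, the 95% interval of the E2 effect crossed 0 for each of the 8 enzymes tested. In E2 plus fulvestrant against fulvestrant, 0 of the 8 enzymes were called by limma and 0 had an unadjusted p under 0.05, where 0% of all genes were called and 516 had an unadjusted p under 0.05. The log2 changes ran from -0.08 (Srd5a3) to 0.10 (Hsd11b1), each with a limma adjusted p of 0.998. The narrowest intervals were those of Hsd17b4 (-0.09 to 0.11) and Por (-0.13 to 0.11), and the widest that of Srd5a1 (-0.65 to 0.53). In the interaction of E2 and fulvestrant over all 12 samples, 0 of the 8 enzymes and 0% of all genes were called, with limma adjusted p-values of 0.944 or above for the enzymes, none of the 8 at an unadjusted p under 0.05, and 501 of all genes at that level. The difference in the E2 effect was -0.21 for Hsd17b10 (95% interval -0.43 to 0.02), -0.17 for Hsd17b12 (-0.36 to 0.03), -0.16 for Por (-0.39 to 0.07) and -0.15 for Hsd17b4 (-0.32 to 0.03).

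Among the 8 enzymes other than Akr1c14, E2 against E2 plus fulvestrant gave log2 differences of 0.22 for Hsd17b4, 0.12 for Srd5a1, 0.10 for Hsd17b10, 0.04 for Hsd17b11, -0.01 for Srd5a3, -0.16 for Hsd17b12, -0.35 for Por and -0.84 for Hsd11b1. These are given without a test because this contrast led to the set. All 3 pairs had more Hsd17b4 with E2, and all 3 had less Hsd17b12, Por and Hsd11b1. The pairs did not share a direction for the other 4, with 0.42, -0.34 and 0.29 for Srd5a1, which came to -0.03 over replicates 2 and 3, and -0.04, 0.14 and 0.02 for Hsd17b11.

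To place the enzymes in their pathway, 66 further genes of steroid synthesis, activation, transport and conjugation were listed, with earlier results of these data known. Of these, 29 were among the genes analysed and 37 were not analysed here. The latter took in all 9 other aldo-keto reductases on the list, Hsd11b2, Srd5a2 and the mouse aromatase gene Cyp19a1. With fulvestrant alone 5 of the 29 (17.2%) were called, 4 higher and 1 lower, against the 5.23% of all genes, and 13 had an unadjusted p under 0.05. The median log2 change was 0.14. By role, the calls fell on 3 of 5 genes of conjugation, 1 of 5 steroid and oxysterol P450 enzymes and the 1 gene of the 11-beta system. None was called of 7 electron transfer partners, 4 genes of cholesterol delivery, 4 other carbonyl reductases, 2 further 17-beta dehydrogenases and 1 gene of the 3-beta family.

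Sult1a1, a sulfotransferase of phenols that include estrogens, had the largest change. It lies on chromosome 7 from 126672865 to 126676432 (ENSMUSG00000030711). It had 33.1, 32.2 and 32.8 normalized counts with vehicle (32.7 ± 0.459, SD, n = 3), and 1061, 409 and 324 with fulvestrant (598 ± 403). The 3 vehicle samples were almost level, and each fulvestrant sample lay far above them. The log2 change was 3.95 (SE 0.31, limma adjusted p = 0.00296, and 0.191 without the replicate block), or 15.5-fold, and leaving out each replicate in turn kept the call with 3.45 to 4.29. With E2 it had 64.1, 43.1 and 36.9 (48.1 ± 14.2), and with E2 plus fulvestrant 1001, 452 and 435 (629 ± 322).

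Papss2, which makes the sulfate donor used by sulfotransferases, rose with fulvestrant as well. It had 653, 546 and 576 normalized counts with vehicle (592 ± 54.9, SD, n = 3) and 1009, 858 and 809 with fulvestrant (892 ± 104), with no overlap. The log2 change was 0.59 (SE 0.09, limma adjusted p = 0.0151, and 0.399 without the replicate block). Ugt1a7c, a glucuronosyltransferase, had 25.4, 457 and 461 with vehicle and 150, 951 and 983 with fulvestrant, a change of 1.55 (SE 0.28, limma adjusted p = 0.0270, and 0.978 without the replicate block). Replicate 1 lay far below the others in each group, and 54.6% of the exon sequence of Ugt1a7c is shared with other Ugt1a genes, so the member of that family that rose is uncertain. With E2 Papss2 had 697, 559 and 474 and Ugt1a7c 41.4, 485 and 455. With E2 plus fulvestrant Papss2 had 1012, 812 and 774 and Ugt1a7c 211, 899 and 967, so both genes had near the same levels in the 2 fulvestrant groups.

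H6pd encodes the enzyme that supplies the product of Hsd11b1 with NADPH inside the endoplasmic reticulum. It had 3707, 8090 and 8195 normalized counts with vehicle (6664 ± 2562, SD, n = 3) and 5534, 14634 and 14192 with fulvestrant (11453 ± 5131). The sample with fulvestrant was higher in 3 of 3 pairs, with a log2 change of 0.74 (SE 0.08, limma adjusted p = 0.00703, and 0.978 without the replicate block). As for Hsd11b1 and Por, replicate 1 was the lowest sample of each group. With E2 it had 3515, 8509 and 7984, and with E2 plus fulvestrant 5354, 15219 and 15006.

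Cyp7b1, an oxysterol and steroid 7-alpha-hydroxylase, was the gene of the list that fell. It had 90.4, 156 and 127 normalized counts with vehicle (124 ± 32.7, SD, n = 3) and 40.2, 57.0 and 58.4 with fulvestrant (51.9 ± 10.1), with no overlap. The log2 change was -1.23 (SE 0.18, limma adjusted p = 0.0148, and 0.434 without the replicate block). Each of H6pd, Papss2, Ugt1a7c and Cyp7b1 lost its call without replicate 2 or without replicate 3 (limma adjusted p from 0.0721 to 0.153), with log2 changes of 0.69 and 0.72 for H6pd, 0.56 and 0.64 for Papss2, 1.80 and 1.79 for Ugt1a7c, and -1.13 and -1.29 for Cyp7b1. Without the variance trend H6pd, Papss2 and Ugt1a7c lost their calls too (limma adjusted p = 0.0608, 0.0694 and 0.111).

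**Figure D4:**
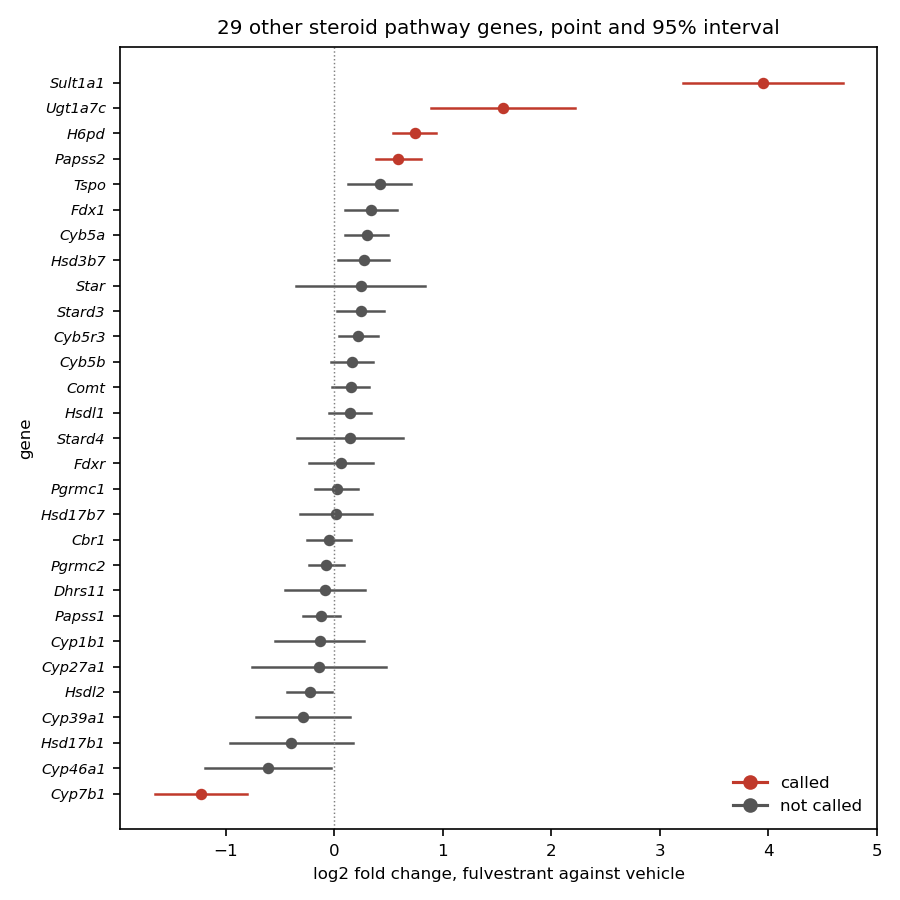
Log2 fold changes with 95% intervals of 29 other steroid pathway genes for fulvestrant against vehicle (limma with the replicate block, 3 samples a group, red where called). Sult1a1 (3.95), Ugt1a7c (1.55), H6pd (0.74) and Papss2 (0.59) were higher and Cyp7b1 (-1.23) was lower.

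In E2 against E2 plus fulvestrant, which shares no sample with fulvestrant against vehicle, 5 of the 29 genes were called, 4 lower with E2 and 1 higher, where 4.6% of all genes were called lower and 4.07% higher (8.68% in either direction). These were the same 5 genes, each moving with fulvestrant in the direction it had without E2. How many of all called genes recur in this way was not counted, so the overlap is not shown to be particular to this list. This contrast led to the set, and the list was drawn up with earlier results of these data known. The calls here are therefore described and are not independent support. The log2 differences were -3.61 for Sult1a1 (limma adjusted p = 2.78e-04), -0.79 for H6pd (0.00186), -0.59 for Papss2 (0.00568), -1.43 for Ugt1a7c (0.0207) and 1.67 for Cyp7b1 (0.00560). Without the replicate block none of these was called, with limma adjusted p-values of 0.0831, 0.973, 0.577, 0.986 and 0.317 in the same order. Cyp7b1 had 88.8, 199 and 165 normalized counts with E2 and 35.5, 44.9 and 54.0 with E2 plus fulvestrant. Without replicate 3, Papss2 (-0.54, limma adjusted p = 0.0551) and Ugt1a7c (-1.60, limma adjusted p = 0.0651) lost their calls, as they did without the variance trend (limma adjusted p = 0.0504 and 0.114).

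E2 against vehicle called 1 of the 29 genes, Cyp1b1, the P450 enzyme that hydroxylates E2 to catechol estrogens. It had 7428, 7496 and 7611 normalized counts with vehicle (7511 ± 92.9, SD, n = 3) and 5671, 5532 and 5098 with E2 (5434 ± 299). Every E2 sample lay below every vehicle sample, and the log2 change was -0.47 (SE 0.05, limma adjusted p = 0.0191, and 1.00 without the replicate block). The call was lost without replicate 3 (-0.41, limma adjusted p = 0.187), without the variance trend (0.336) and in a fit of all 12 samples (0.468). With fulvestrant Cyp1b1 had 4483, 8548 and 8336, where replicate 1 fell outside the others, and with E2 plus fulvestrant 5763, 7601 and 7575. In E2 plus fulvestrant against fulvestrant and in the interaction, limma called 0 of the 29 genes, and 0 had an unadjusted p under 0.05.

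**Figure D5:**
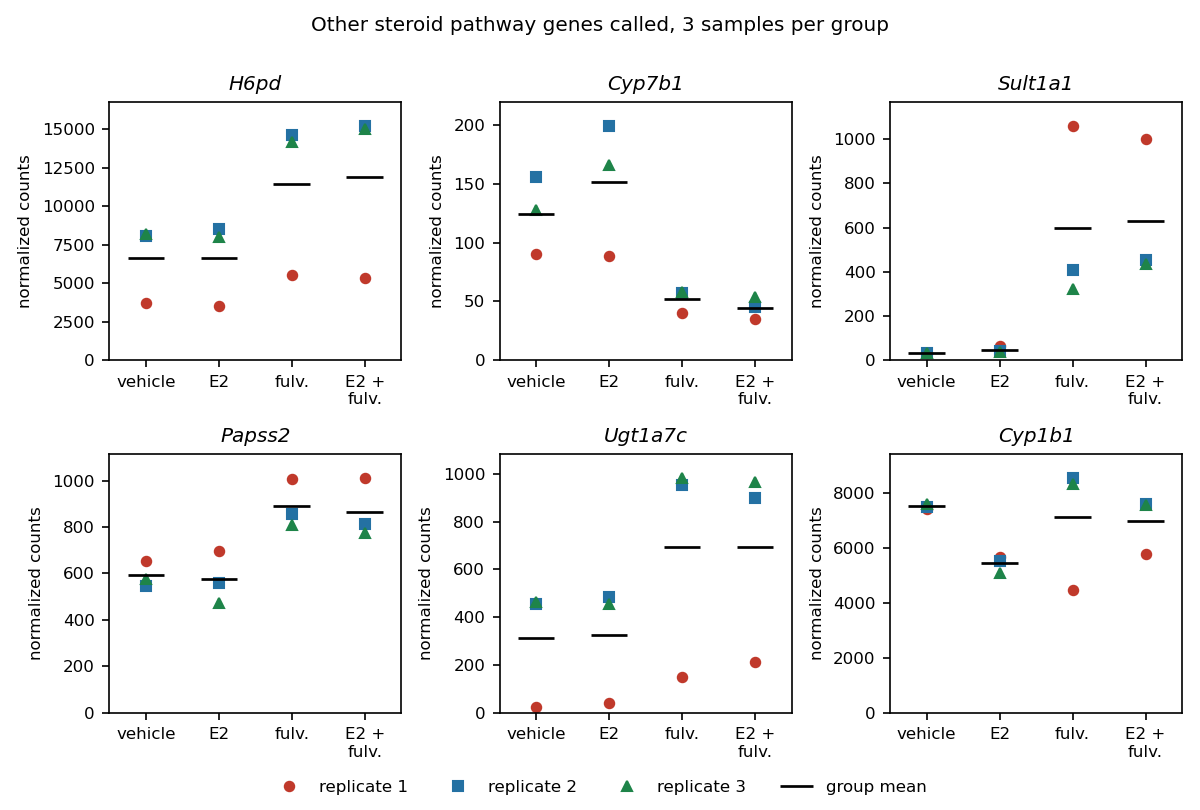
Normalized counts of the 6 called pathway genes in each of the 12 samples, with symbols for replicate numbers and a bar for the group mean (n = 3). H6pd, Sult1a1, Papss2 and Ugt1a7c were higher in both fulvestrant groups within each replicate number and Cyp7b1 was lower, while Cyp1b1 was lower in the 3 E2 samples (5098 to 5671) than with vehicle.

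The genes with a profile most like that of Akr1c14 over the 12 samples were Slco2a1, Esr1, Mdga1, Peg10 and Qpct. Likeness was the root mean square difference of log2(value + 1) after the mean of each replicate number was taken off, over 13232 other genes, and is a description of samples that share treatment. It was 0.36 for Slco2a1, a prostaglandin transporter, 0.40 for Esr1, the estrogen receptor-alpha gene, 0.41 for Mdga1, 0.44 for Peg10 and 0.45 for Qpct, a glutaminyl cyclase, against a median of 1.01 over all genes and 1.00 for a gene that did not vary. Slco2a1 had 130 ± 62.0 normalized counts with vehicle, 406 ± 64.5 with E2, 84.5 ± 24.2 with fulvestrant and 85.9 ± 6.63 with E2 plus fulvestrant (SD, n = 3). Esr1 had 348 ± 146, 550 ± 84.2, 133 ± 77.8 and 126 ± 77.5 in the same order. Qpct had 446 ± 74.6, 1162 ± 121, 320 ± 33.6 and 380 ± 13.8. Peg10 spread widely, with 3033 ± 2495 with vehicle and 4889 ± 4064 with E2. As for Akr1c14, the mean of each of these genes was highest with E2, and both fulvestrant groups lay below vehicle. This shared order follows from picking the genes by likeness to Akr1c14 and is no separate result.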

How the data were processed

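RNA-Seq of 12 HAF samples (4 groups of 3, grouped and numbered by the submitters' labels) was analysed. Per the labels and the paper's methods, the authors made libraries from ribosome-depleted total RNA, trimmed reads with Trimmomatic 0.39, removed ribosomal reads, aligned to mm10 with STAR 2.5.2, counted per gene and strand with HTSeq 0.13.5, removed counts under 10, and scaled samples by DESeq2 1.37's median of ratios. The unit of the deposited table is therefore a signal, a normalized count for each gene in each sample. The authors also adjusted for batch, but whether in these values is not given in the sources used here. Of the values 100.0% were whole reads (tolerance 0.001) once multiplied by a factor per sample, and depth recovered in this way ran from 18827792 to 44040507 reads.

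From these values log2(value + 1) was fitted with limma 3.58.1 in R 4.3.3 (eBayes with a variance trend), on the 2 groups compared, or on all 12 samples for the interaction, with p-values adjusted over all 13233 genes. Calls needed an adjusted p under 0.05 and, save for the interaction, a fold change over 1.2. The replicate number was a block, since the rule for the genes pairs samples by it. Deviations from the group mean were correlated across genes in all 18 pairs of samples with 1 number (0.63 to 0.92). Among replicates 2 and 3, samples with the same number correlated at a mean of 0.707. Replicate 2 correlated with replicate 3 at a mean of 0.714 (0.63 to 0.79), so the numbers mark mainly replicate 1 against the rest. The labels do not give what the numbers share.

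Symbols and positions came from GENCODE M21 (13149 identifiers matched), and promoters from RefSeq, with 8 of 9 members matched. Named genes were all 9 members, the pathway genes called (up to 15 by size for fulvestrant against vehicle, 5 for each other comparison) and the 5 profiles nearest to Akr1c14. The members and lists were chosen with earlier results of these data known. A further marker list and a receptor gene are not reported here. The fit was tested on simulated data. Alternatives were no block, pseudocount 5, means of at least 10 or 100, CPM, quantile normalization, eBayes without the trend, no fold threshold, all 12 samples in one fit and each replicate number left out. Python 3.11.15 with pandas 2.3.3, numpy 2.4.6 and matplotlib 3.10.9 read the values and drew the plots.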

Additional observations from a re-analysis of the deposited data

Results flagged for a closer look

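Hsd17b10 was higher with E2 than with vehicle in all 3 pairs (0.10, 0.16 and 0.21 on the log2 scale) and lower with E2 plus fulvestrant than with fulvestrant in all 3 pairs (-0.01, -0.09 and -0.04). These opposite directions brought it to notice. The test of the difference itself, the interaction of E2 and fulvestrant, gave -0.205 (SE 0.10, limma adjusted p = 0.944), so the difference did not pass the threshold.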

How the results depend on the processing

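Every call of a member or pathway gene depended on the replicate block: without it fulvestrant against vehicle called 0 genes (692 with it), 0 members (1) and 0 pathway genes (5), E2 against vehicle 0 genes (57) and 0 pathway genes (1), and E2 against E2 plus fulvestrant 8 genes (1148) and 0 pathway genes (5). The cause was not tested. Without the variance trend these counts were 104, 0, 2, 0, 0, 218 and 3. With all 12 samples in one fit, fulvestrant against vehicle called 1648 genes, 2 members and 8 pathway genes, and E2 against vehicle 10 genes and 0 pathway genes. Leaving out a replicate number gave 20 to 2208 genes, 0 to 4 members and 1 to 7 pathway genes for fulvestrant against vehicle, 6 to 279 genes and 0 to 1 pathway genes for E2 against vehicle, 351 to 1956 genes and 3 to 7 pathway genes for E2 against E2 plus fulvestrant, 0 to 147 genes for E2 plus fulvestrant against fulvestrant, and 0 to 11 genes for the interaction. The high counts of the last pair came without replicate 1. Another pseudocount, filters on a mean of 10 or 100, quantile normalization, CPM and adjusted p alone moved no count of calls by over 1.5 times. Among members in the tested comparisons, those whose direction turned were uncalled, and pathway genes that were not called were not followed here. With quantile normalization these were Srd5a1 (0.053) and Hsd17b4 (-0.0012) in E2 plus fulvestrant against fulvestrant and Hsd11b1 (-0.0085) in the interaction. With each replicate number left out, Srd5a3 ran from -0.033 to 0.024 and Hsd17b11 from -0.22 to 0.067 for fulvestrant against vehicle, and Hsd11b1 from -0.088 to 0.23 for E2 against vehicle. In E2 plus fulvestrant against fulvestrant, Hsd11b1 ran from -0.020 to 0.24, Srd5a1 from -0.22 to 0.035, Hsd17b4 from -0.0055 to 0.027, Hsd17b12 from -0.12 to 0.00020 and Por from -0.055 to 0.047. In the interaction, Hsd11b1 ran from -0.25 to 0.28, Srd5a3 from -0.043 to 0.050 and Hsd17b11 from -0.056 to 0.14. Tests on recovered read counts with other tools were planned and not run, because with no value under 10 reads the recovery of whole reads did not pass a check of the unit. Among the 9 members, depth limits Srd5a1 and Hsd11b1 most, with lowest values of 16.2 and 25.6 normalized counts.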

Other observations

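The 4 groups had Pgr, the progesterone receptor gene, at 71.7 ± 41.2 normalized counts with vehicle, 239 ± 83.3 with E2, 16.9 ± 4.27 with fulvestrant and 23.4 ± 7.50 with E2 plus fulvestrant (SD, n = 3). Nr3c2, the mineralocorticoid receptor gene, had 399, 43.5 and 48.2 with vehicle, so that replicate 1 stood above replicates 2 and 3, as it did with E2 (359, 46.1 and 48.7), fulvestrant (328, 32.2 and 27.6) and both (237, 31.2 and 43.2). Replicate 1 of Hsd11b1 was the lowest sample of its group under all 4 treatments.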
